A study of Homo sapiens with 8 samples.

Results

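The genes described here are 47 components of TGF-beta and BMP signalling, taken as a fixed list of symbols, in cells of the human breast cancer line BT549 held in suspension or left attached. A listed gene was measured if a probe set of the array carried its symbol and no other. This gave 46 genes on 48 probe sets, out of 18417 genes measured in all. BMPR1A, a BMP type I receptor, is not analysed here. The suspended group held 4 cultures kept off the plastic for 24 h by a poly-HEMA coating, which leaves cells no surface to grip. The attached group held 4 cultures on ordinary tissue culture plates, for which the labels give 24 h in one field and 48 h in another, so that attachment and culture time cannot be told apart if the longer time holds. All 8 cultures received the same RPMI medium with serum and insulin, and all came from 1 established line of the triple-negative type, so p-values speak for these cultures and not for other tumours. Since each array read the RNA of a whole culture, fewer cells carrying a transcript and less of it per cell cannot be told apart.

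TGF-beta, activins and BMPs are secreted dimers that bind pairs of type I and type II receptor kinases. The receptors phosphorylate SMAD2 and SMAD3 for TGF-beta and activin, or SMAD1, SMAD5 and SMAD9 for BMPs, and these enter the nucleus with SMAD4. TGF-beta is secreted in a latent form tied to the matrix and must be released before it acts, whereas BMPs are held in check mainly by secreted antagonists. In breast carcinoma cells TGF-beta is known for restraining proliferation early and for driving mesenchymal traits and invasion later, and the ID genes are standard readouts of BMP input.

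The arrays gave log2 signals with medians between 6.02 and 6.07. Arrays correlated at r = 0.993 to 0.996 within the suspended group, 0.995 to 0.996 within the attached group and 0.987 to 0.994 between them, over all probe sets. The mesenchymal markers fixed for checking the line were bright, with VIM at 11.66 ± 0.06 in suspended and 11.73 ± 0.01 in attached cells (mean log2 signal ± SD, n = 4 each) and FN1 at 10.87 ± 0.03 and 10.79 ± 0.05 in the same order. CDH1, the epithelial cadherin, was at 4.26 ± 0.10 in suspended and 4.19 ± 0.06 in attached cells, below the 25th percentile of gene means (5.28). The other epithelial markers measured lay above that percentile, with KRT18 at 8.13 ± 0.06 in suspended and 8.16 ± 0.07 in attached cells. In the same order KRT19 was at 6.75 and 6.57, KRT8 at 6.37 and 6.42, and EPCAM at 5.35 and 5.47. ESR1 and PGR lay below that percentile, while ERBB2 lay above it, at 7.53 ± 0.06 in suspended and 7.48 ± 0.03 in attached cells. Of the 5 mesenchymal markers ZEB1 was called higher and CDH2 and AXL lower, while 0 of 5 epithelial, 0 of 3 hormone receptor and HER2 and 0 of 3 endothelial markers were called by limma (0 of each at unadjusted p under 0.05). Of the 3 leukocyte markers measured PTPRC and CD3E lay below that percentile, while CD14, at 5.72 ± 0.15 in suspended and 5.50 ± 0.05 in attached cells, was called higher (adjusted p = 0.0467), a call kept under 4 of 17 alternatives and lost without any 1 array other than suspended replicate 2 (differences of 0.15 to 0.27 with 1 array left out). The part of CD14 in the results was not tested. The signals come without a detection call, so a low one does not say whether a gene was expressed.

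The listed genes were chosen with earlier results of these data known, so shares set beside those of all genes do not test the list. Of the 46 genes, 27 (58.7%) passed the test between suspended and attached cells, against 20.6% of all 18417 genes (limma, Benjamini-Hochberg adjusted p under 0.05). Of these, 21 were higher in suspension and 6 were lower; among all genes 10.4% were higher and 10.2% lower. The median log2 difference, suspended minus attached, was 0.16 over the 46 genes and 0.02 over all genes. Differences ran up to 0.84 (BMP2) and down to −0.92 (LTBP2), so that 0 of the 46 reached a 2-fold change. Among the 13813 genes at or above the 25th percentile of mean signal 26.2% were called, and 43 of the 46 lay there, of which 62.8% were called. In this fit the share called was thus higher at or above that percentile than over all genes. A separate fit, with its own adjustment, took only genes above the median of mean signal. It called 3870 of 9208 genes, and 29 of the 41 listed genes among them. Its counts are not comparable with those of the first fit. Suspended and attached arrays were fully separated for 31 of the 46 genes (67.4%), against 24.8% of all genes. Suspended values did not overlap attached ones and were higher for 24 of these, against 12.7% of all genes, and lower for 7, against 12.2%. The rises included all 3 TGF-beta isoforms, BMP2, BMP4 and BMP6, the receptors TGFBR1, TGFBR2, ACVR1 and BMPR2, and 3 of the 4 ID genes. The rises also included FST, BAMBI, SMAD7 and SKI, which are known to restrain signalling. The falls were LTBP2, FSTL1, FSTL3, SMAD5, SMURF2 and SKIL, of which FSTL3, SMURF2 and SKIL are likewise known to restrain signalling.

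**Figure D1:**
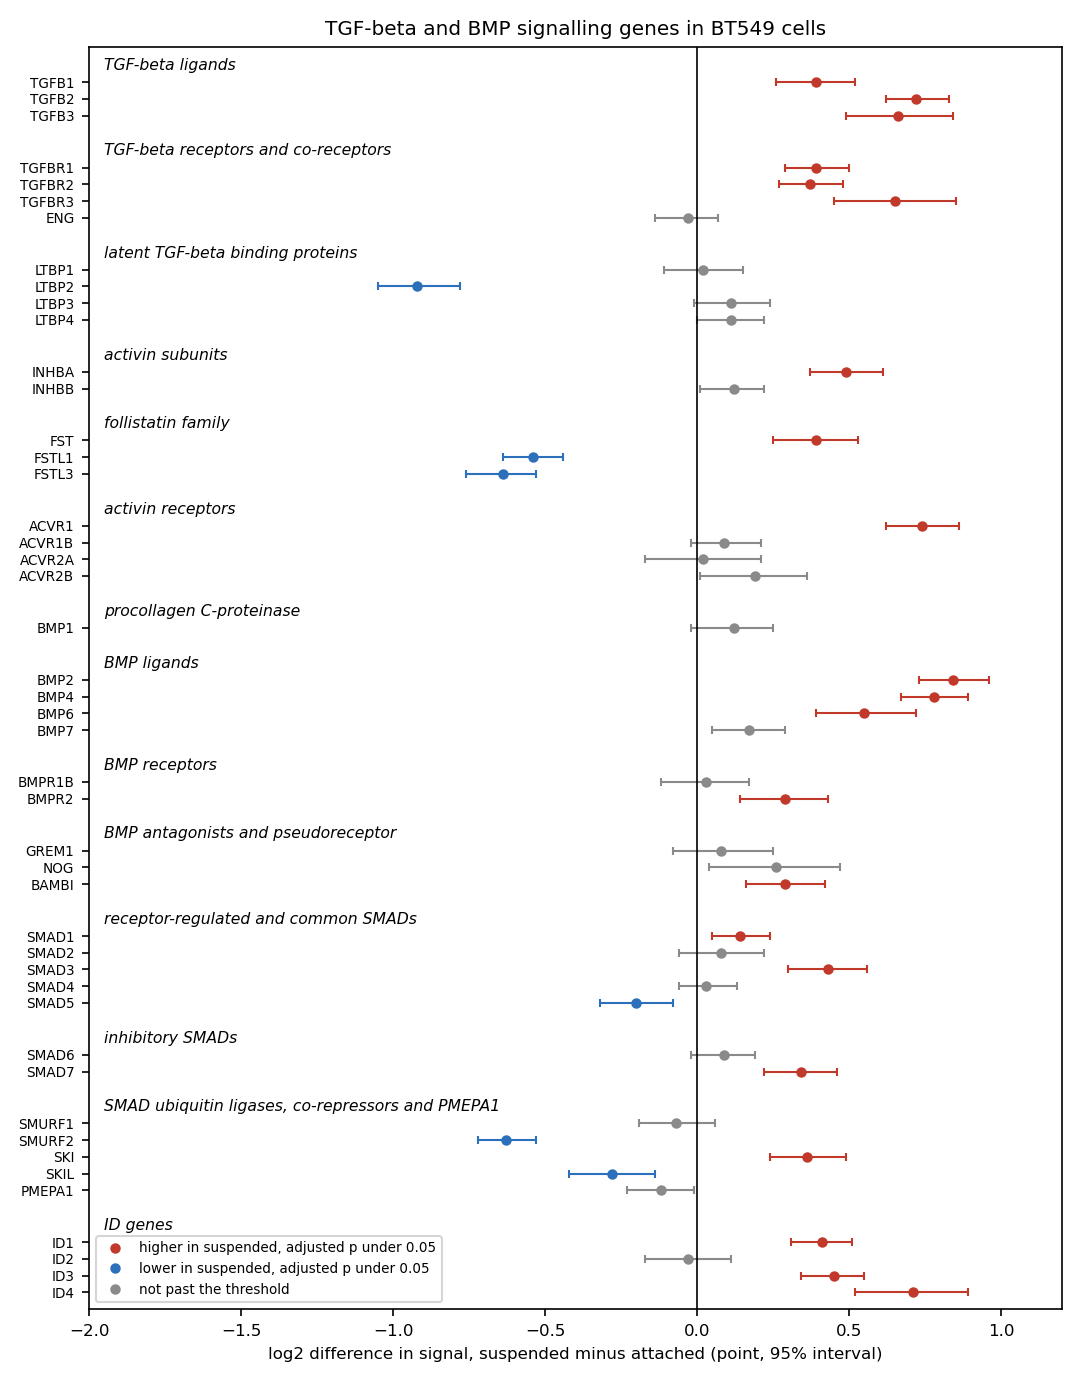
Log2 difference in signal, suspended minus attached, for the 46 genes grouped by role (points, with 95% intervals from limma; red and blue are past adjusted p 0.05, grey is not). The 3 TGF-beta ligands and BMP2, BMP4 and BMP6 sit right of zero, LTBP2 stands farthest left at −0.92, and BMP2 farthest right at 0.84.

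The ID genes encode helix-loop-helix proteins that lack a DNA-binding region and block other transcription factors of that class. The promoters of the family are shown because 3 of its members were called higher and ID2 was not, and that of SMAD6 because it holds the rarest of the motifs searched. Each sequence is the 250 bases before the annotated gene start, 5′ to 3′ on the gene's strand, from the RefSeq table of GRCh38.p14. Capitals mark matches, on either strand, to the motifs GTCTAGAC (the palindromic SMAD box), CAGAC (a shorter SMAD box), GGCGCC and GGCTCC (GC-rich SMAD boxes). The windows lie at chr20:31605039-31605288 (plus strand), chr2:8681806-8682055 (plus strand), chr1:23559502-23559751 (minus strand), chr6:19837120-19837369 (plus strand) and chr15:66701986-66702235 (plus strand).
ID1: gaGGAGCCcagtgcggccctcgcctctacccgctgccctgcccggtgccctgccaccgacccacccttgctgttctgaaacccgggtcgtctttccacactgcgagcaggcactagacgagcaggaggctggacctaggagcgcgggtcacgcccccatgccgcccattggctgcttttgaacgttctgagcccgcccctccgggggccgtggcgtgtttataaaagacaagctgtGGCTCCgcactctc
ID2: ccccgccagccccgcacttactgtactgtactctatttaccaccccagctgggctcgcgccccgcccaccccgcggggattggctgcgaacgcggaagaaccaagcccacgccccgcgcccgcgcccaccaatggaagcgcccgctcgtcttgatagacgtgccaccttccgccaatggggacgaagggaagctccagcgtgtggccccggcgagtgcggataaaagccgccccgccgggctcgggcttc
ID3: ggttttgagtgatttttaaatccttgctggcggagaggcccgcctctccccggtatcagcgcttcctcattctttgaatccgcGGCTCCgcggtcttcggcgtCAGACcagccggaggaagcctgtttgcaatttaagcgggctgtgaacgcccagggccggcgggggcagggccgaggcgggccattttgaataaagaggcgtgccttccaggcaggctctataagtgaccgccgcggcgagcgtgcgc
ID4: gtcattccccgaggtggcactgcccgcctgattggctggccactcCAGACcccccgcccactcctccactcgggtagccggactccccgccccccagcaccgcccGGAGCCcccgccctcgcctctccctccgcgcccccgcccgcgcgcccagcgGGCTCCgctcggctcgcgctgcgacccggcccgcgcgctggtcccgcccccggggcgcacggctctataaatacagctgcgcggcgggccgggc
SMAD6: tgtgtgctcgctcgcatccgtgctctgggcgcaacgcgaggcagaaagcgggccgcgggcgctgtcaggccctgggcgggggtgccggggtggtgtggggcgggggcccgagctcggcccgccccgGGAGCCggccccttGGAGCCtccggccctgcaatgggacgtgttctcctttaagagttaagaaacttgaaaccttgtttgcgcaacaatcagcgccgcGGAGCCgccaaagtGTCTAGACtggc

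The ID3 window held 1 CAGAC and 1 GGCTCC, the ID4 window 1 CAGAC and 2 GGCTCC, and the ID1 window 2 GGCTCC. None of the 4 motifs was in the ID2 window. SMAD6, which was not called, had GTCTAGAC starting 12 bases before its gene start, beside 3 matches to GGCTCC. These motifs are short, and most are common: CAGAC or its complement was in 38.0% of 35116 promoter windows of the same length, GGCTCC in 30.6%, GGCGCC in 16.4% and GTCTAGAC in 0.182%. In the 77 windows of the 42 listed genes found in the table, counting several start sites of a gene separately, the shares were 39.0%, 46.8%, 26.0% and 1.30% in that order. A match is a run of letters and not a binding site. Sequence outside these windows was not searched, and a link between the motifs and the calls was not tested.

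ID3, ID1 and ID4 were higher in suspended cells. ID3 measured 10.39, 10.52, 10.42 and 10.40 in the suspended arrays, against 9.93, 9.98, 10.02 and 9.99 in the attached arrays (log2 signal). The lowest suspended value lay above the highest attached one, and the log2 difference was 0.45 (SE 0.048, limma adjusted p = 5.61e-05). ID1 measured 10.76, 10.85, 10.75 and 10.82 in the suspended arrays, against 10.39, 10.38, 10.44 and 10.32 in the attached arrays. Its groups did not overlap either, and the difference was 0.41 (SE 0.047, adjusted p = 9.59e-05). ID4 gave 8.19, 8.28, 8.32 and 7.99 in the suspended arrays, against 7.37, 7.35, 7.60 and 7.62 in the attached arrays. ID4 varied more between arrays than ID1 and ID3, with an SD of 0.14 in each group, but its groups stayed apart and it had the largest difference of the family, 0.71 (SE 0.084, adjusted p = 0.000126). ID2 measured 9.87, 9.94, 9.99 and 9.68 in the suspended arrays, against 9.92, 9.91, 9.92 and 9.86 in the attached arrays. These groups overlapped, the difference was −0.03 with a 95% interval of −0.17 to 0.11, and ID2 was not called (adjusted p = 0.802).

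Among the BMP ligands BMP2, BMP4 and BMP6 rose and BMP7 did not pass the test. BMP4 measured 9.05, 9.18, 9.05 and 9.07 in the suspended arrays, against 8.25, 8.33, 8.35 and 8.30 in the attached arrays. Every suspended array was at least 0.7 above every attached one, and the signal was 1.72-fold higher (log2 difference 0.78, SE 0.049, adjusted p = 9.88e-07), the smallest adjusted p of the 46. BMP2, the closest relative of BMP4 and likewise a bone-inducing ligand, measured 7.49, 7.46, 7.56 and 7.54 in the suspended arrays, against 6.80, 6.60, 6.63 and 6.65 in the attached arrays. It was 1.80-fold higher, with a log2 difference of 0.84 (SE 0.054, adjusted p = 1.11e-06). BMP6 averaged 8.32 ± 0.07 in suspended and 7.77 ± 0.16 in attached cells, a difference of 0.55 (adjusted p = 0.000348). BMP7 averaged 7.23 ± 0.06 in suspended and 7.06 ± 0.09 in attached cells. Its groups did not overlap, yet the difference of 0.17 gave adjusted p = 0.0548, and it was called when attached replicate 2 was left out. BMP1, despite its name, is not a BMP ligand but a metalloproteinase that cleaves procollagen among other proteins. The BMP1 difference was 0.12 (adjusted p = 0.213), and its second probe set gave 0.08.

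All 3 TGF-beta isoforms rose. TGFB2 measured 9.02, 9.09, 9.05 and 9.16 in the suspended arrays, against 8.30, 8.39, 8.36 and 8.37 in the attached arrays. The groups lay far apart beside their SDs of 0.06 and 0.04, and the signal was 1.65-fold higher (log2 difference 0.72, SE 0.048, adjusted p = 1.40e-06). TGFB3 measured 7.19, 7.56, 7.40 and 7.29 in the suspended arrays, against 6.76, 6.80, 6.63 and 6.59 in the attached arrays. It spread more, with an SD of 0.16 in suspended cells, and differed by 0.66 (SE 0.079, adjusted p = 0.000127) without overlap. TGFB1 averaged 7.48 ± 0.05 in suspended and 7.09 ± 0.11 in attached cells, a difference of 0.39 (adjusted p = 0.000619).

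Both signalling receptors for TGF-beta rose by similar steps. TGFBR1, the type I kinase, measured 9.09, 9.18, 9.12 and 9.24 in the suspended arrays, against 8.78, 8.76, 8.78 and 8.74 in the attached arrays. The attached values were tight (SD 0.02), the groups did not overlap, and the difference was 0.39 (SE 0.047, adjusted p = 0.000128). TGFBR2, the type II kinase that binds the ligand first, averaged 8.59 ± 0.06 in suspended and 8.22 ± 0.02 in attached cells, a difference of 0.37 (adjusted p = 0.000187). TGFBR3, betaglycan, a co-receptor that presents ligand and in particular TGFB2, averaged 7.04 ± 0.18 in suspended and 6.39 ± 0.14 in attached cells, a difference of 0.65 (adjusted p = 0.000414). ENG, endoglin, a related co-receptor best known from endothelial cells, was not called, with a 95% interval of −0.14 to 0.07.

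**Figure D2:**
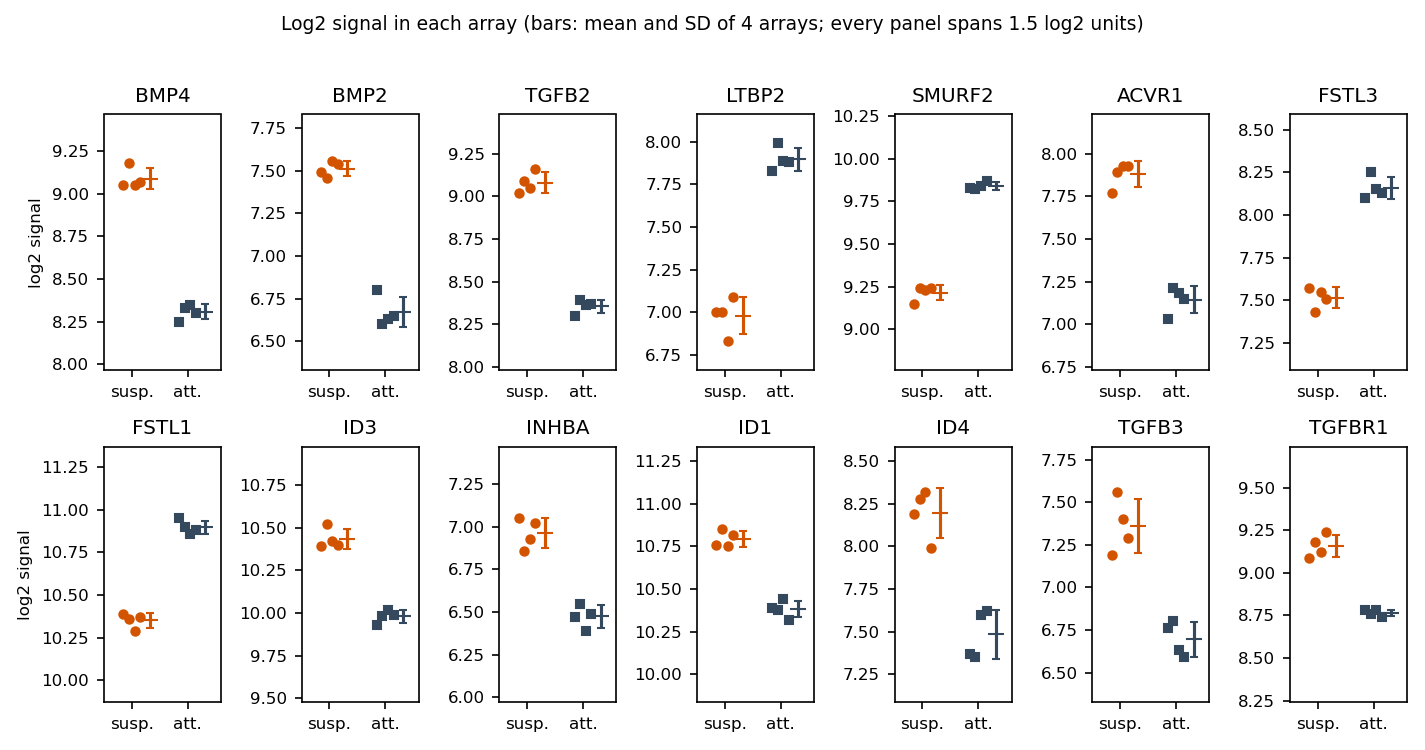
Log2 signal of the 14 genes with the smallest adjusted p in each array, suspended (orange circles) left of attached (dark squares), with the mean and SD of 4 arrays beside the points. The groups do not overlap in any of the 14 panels; LTBP2, SMURF2, FSTL3 and FSTL1 are lower in suspended cells and the other 10 are higher.

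The latent TGF-beta binding proteins, matrix glycoproteins related to fibrillins, did not follow the ligands. LTBP2 measured 7.00, 7.00, 6.83 and 7.09 in the suspended arrays, against 7.83, 7.99, 7.89 and 7.88 in the attached arrays. It had the largest difference of the 46 genes in either direction, 1.89-fold lower in suspension (log2 difference −0.92, SE 0.062, adjusted p = 1.77e-06). LTBP2 is the family member known not to bind latent TGF-beta. LTBP1, LTBP3 and LTBP4, which do bind it, were not called, with differences of 0.02, 0.11 and 0.11 and 95% intervals that together ran from −0.11 to 0.24.

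In the activin branch INHBA rose and the antagonists were divided. Of the 4 receptors listed as activin receptors only ACVR1 was called. INHBA, whose product dimerises to activin A, measured 7.05, 6.86, 6.93 and 7.02 in the suspended arrays, against 6.47, 6.55, 6.39 and 6.49 in the attached arrays. The groups did not overlap and the difference was 0.49 (SE 0.056, adjusted p = 9.13e-05). INHBB, the subunit of activin B, differed by 0.12 (adjusted p = 0.112). ACVR1, a type I receptor also called ALK2 that signals to the BMP SMADs, measured 7.77, 7.89, 7.93 and 7.93 in the suspended arrays, against 7.03, 7.21, 7.18 and 7.15 in the attached arrays. All suspended values lay above all attached ones, and the signal was 1.67-fold higher (log2 difference 0.74, SE 0.056, adjusted p = 4.28e-06). ACVR1B, ACVR2A and ACVR2B, the other activin receptors of the list, were not called, with differences of 0.09, 0.02 and 0.19.

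FSTL3 and FSTL1 fell, and FST rose. FSTL3, a secreted protein that binds activin, measured 7.57, 7.43, 7.55 and 7.51 in the suspended arrays, against 8.10, 8.25, 8.15 and 8.13 in the attached arrays. It was 1.56-fold lower in suspension (log2 difference −0.64, SE 0.052, adjusted p = 7.20e-06), with no overlap. FSTL1, a secreted glycoprotein reported to bind BMP4, measured 10.39, 10.36, 10.29 and 10.37 in the suspended arrays, against 10.95, 10.90, 10.86 and 10.88 in the attached arrays. The groups did not overlap, and FSTL1 was 1.46-fold lower in suspension (log2 difference −0.54, SE 0.046, adjusted p = 8.77e-06). FST, follistatin itself, the classical activin antagonist, averaged 6.91 ± 0.12 in suspended and 6.52 ± 0.06 in attached cells, a difference of 0.39 in the opposite direction (adjusted p = 0.00113).

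Of the BMP receptors and their antagonists, BMPR2 and BAMBI rose. BMPR2, the type II receptor, averaged 9.23 ± 0.13 in suspended and 8.95 ± 0.06 in attached cells, a difference of 0.29 (adjusted p = 0.0102). BAMBI, a pseudoreceptor without a kinase that dampens TGF-beta and BMP signalling, averaged 8.90 ± 0.07 in suspended and 8.61 ± 0.09 in attached cells, also a difference of 0.29 (adjusted p = 0.00373). BMPR1B, NOG and GREM1 were not called; the mean signals of BMPR1B and NOG, like that of ACVR2B, lay below the 25th percentile of genes. NOG, the secreted BMP trap noggin, differed by 0.26 (95% interval 0.04 to 0.47, adjusted p = 0.0887) and was called without attached replicate 1.

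Of the receptor-regulated SMADs and SMAD4, SMAD3 and SMAD1 were called higher and SMAD5 lower. SMAD3, which carries the TGF-beta and activin signal, averaged 7.97 ± 0.08 in suspended and 7.54 ± 0.10 in attached cells, a difference of 0.43 (adjusted p = 0.000408), while SMAD4, the shared partner, differed by 0.03 (95% interval −0.06 to 0.13). SMAD2 differed by 0.08 on its brighter probe set (adjusted p = 0.398) and by 0.27 on its other one (adjusted p = 0.0457 over all probe sets), and was called when its probe sets were averaged. SMAD1 and SMAD5, which carry the BMP signal, went opposite ways by small steps: SMAD1 by 0.14 (adjusted p = 0.0380) and SMAD5 by −0.20 (adjusted p = 0.0254). The SMAD1 call was lost when any 1 of the 8 arrays was left out (0.13 to 0.15), and the SMAD5 call without suspended replicate 1 or attached replicate 2 or 4 (−0.22 to −0.16).

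The negative feedback arm changed in part. SMAD7, the inhibitory SMAD that TGF-beta induces against itself, averaged 6.64 ± 0.08 in suspended and 6.30 ± 0.06 in attached cells, a difference of 0.34 (adjusted p = 0.000977). SMAD6, its counterpart on the BMP side, differed by 0.09 (95% interval −0.02 to 0.19, adjusted p = 0.236), although its 4 suspended values lay above the 4 attached ones. SMURF2, a ubiquitin ligase that marks SMADs and receptors for destruction, measured 9.15, 9.24, 9.23 and 9.24 in the suspended arrays, against 9.83, 9.82, 9.84 and 9.87 in the attached arrays. It was 1.54-fold lower in suspension (log2 difference −0.63, SE 0.044, adjusted p = 2.53e-06), with groups spread by only 0.04 and 0.02 (SD). Its relative SMURF1 was not called (−0.07, 95% interval −0.19 to 0.06). The SMAD co-repressors parted, SKI with a difference of 0.36 (adjusted p = 0.000861) and SKIL with −0.28 (adjusted p = 0.00830). PMEPA1, a TGF-beta target that sequesters SMAD2 and SMAD3, differed by −0.12 (adjusted p = 0.123).

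**Figure D3:**
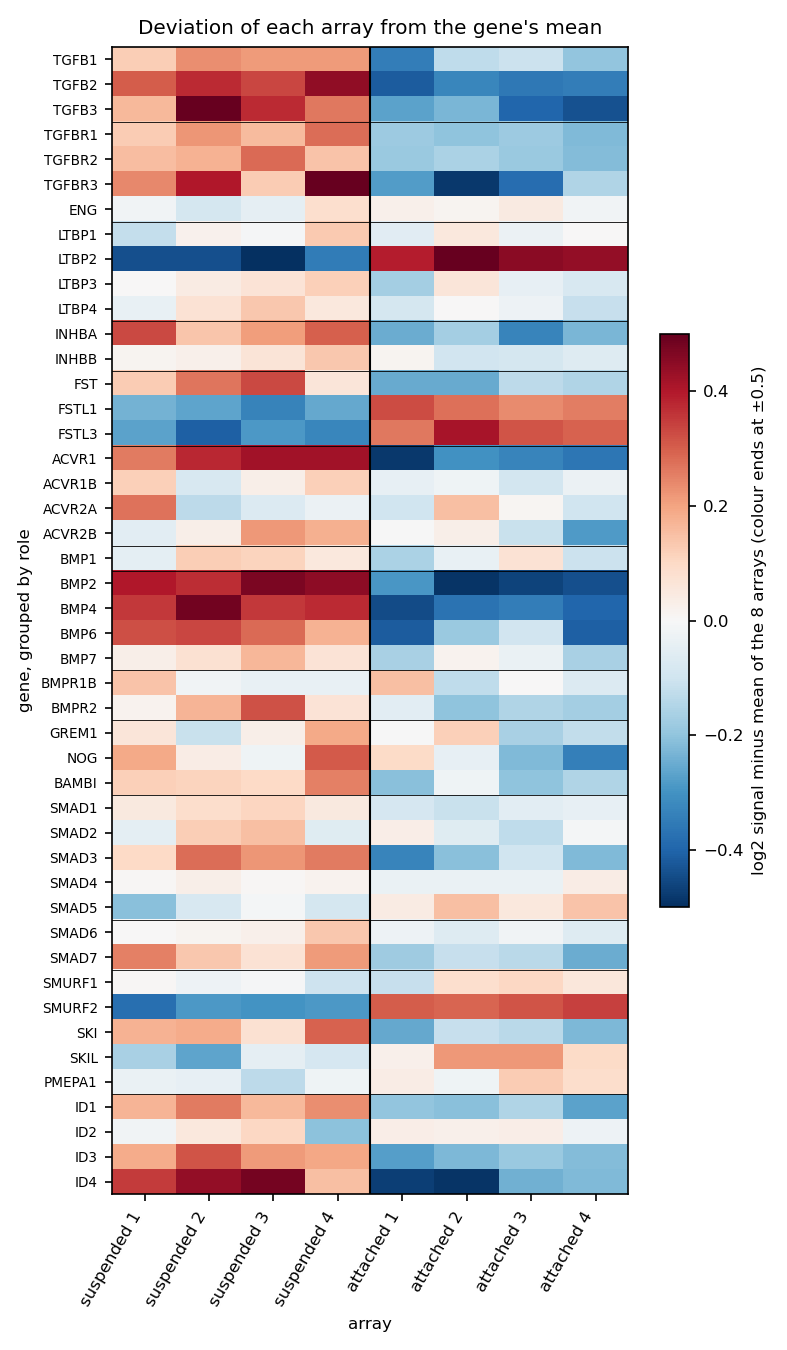
Deviation of each array's log2 signal from the mean of the 8 arrays for the 46 genes, suspended arrays on the left and attached arrays on the right, with thin lines between roles and colours ending at ±0.5. The rows of called genes change colour at the line between the groups, and rows such as LTBP1, ENG and ID2 do not.

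Other genes of the pathway, listed by their known roles, are given by their counts. These lists too were chosen with earlier results of these data known, so the counts do not test them. Of 14 known BMP targets outside the 46 genes 7 were called higher and 0 lower (10 at unadjusted p under 0.05), with a list median of 0.28. HEY1, a Notch and BMP target, rose by 0.65, DLX2 by 0.52, GATA3 by 0.49 and SMAD9, a BMP SMAD that is itself induced by BMP, by 0.44. The adjusted p of these 4 was at most 9.49e-05, and left-out arrays gave 7 or 8 called targets. Of 27 measured TGF-beta targets outside the 46 genes 6 were called higher and 9 lower, with a median of 0.02. These figures take no account of whether TGF-beta raises or lowers a given target. SNAI2, a repressor of epithelial genes, rose by 1.23. TGM2, a protein-crosslinking enzyme, fell by 1.57, TAGLN, an actin-binding protein of smooth muscle, by 1.31, and LOX, which crosslinks collagen, by 0.88. Over all genes, 10.4% were called higher and 10.2% lower.

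Of 20 genes for the release and activation of latent TGF-beta, 6 (30.0%) were called higher and 4 (20.0%) lower (median 0.09). The shares over all genes were 10.4% and 10.2%. ITGB8, a subunit of an integrin that activates latent TGF-beta, averaged 8.74 ± 0.05 in suspended and 7.63 ± 0.06 in attached cells, a 2.15-fold rise (log2 difference 1.10, adjusted p = 7.71e-08). FBN1, the fibrillin that anchors latent complexes, rose by 0.52, while THBS1, a secreted activator of TGF-beta, fell by 0.46 and the protease MMP9 by 0.58. Without attached replicate 1 the count of rises was 4.

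Of 32 other ligands and antagonists measured, 6 (18.8%) were called higher and 2 (6.25%) lower (median 0.07). For the lists in this paragraph the shares over all genes were again 10.4% and 10.2%. GDF15, a distant stress-induced member of the superfamily, rose by 0.91 and GDF11 by 0.29. The falls were the BMP-binding proteins CRIM1, a transmembrane protein, by 1.24 and BMPER by 0.75. Without suspended replicate 1 or 4, or attached replicate 3 or 4, the rises numbered 4. Of 8 other receptors and co-receptors 1 was called higher and 2 lower (median −0.02). NRP2 fell by 0.75 and RGMB, a BMP co-receptor, by 0.36. RGMA rose by 0.22, a call lost without suspended replicate 3 or 4 or attached replicate 1 or 4, and NRP1 was not called (−0.09). Of 22 other SMAD regulators and partners 5 (22.7%) were called higher and 3 (13.6%) lower (median 0.06). Besides SMAD9, EP300, a histone acetyltransferase that SMADs recruit, rose by 0.31, whereas NEDD4L, a ubiquitin ligase for SMAD2 and SMAD3, fell by 0.46 and HIPK2 by 0.24. Without attached replicate 3 or 4 these counts were 3 and 2.

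**Figure D4:**
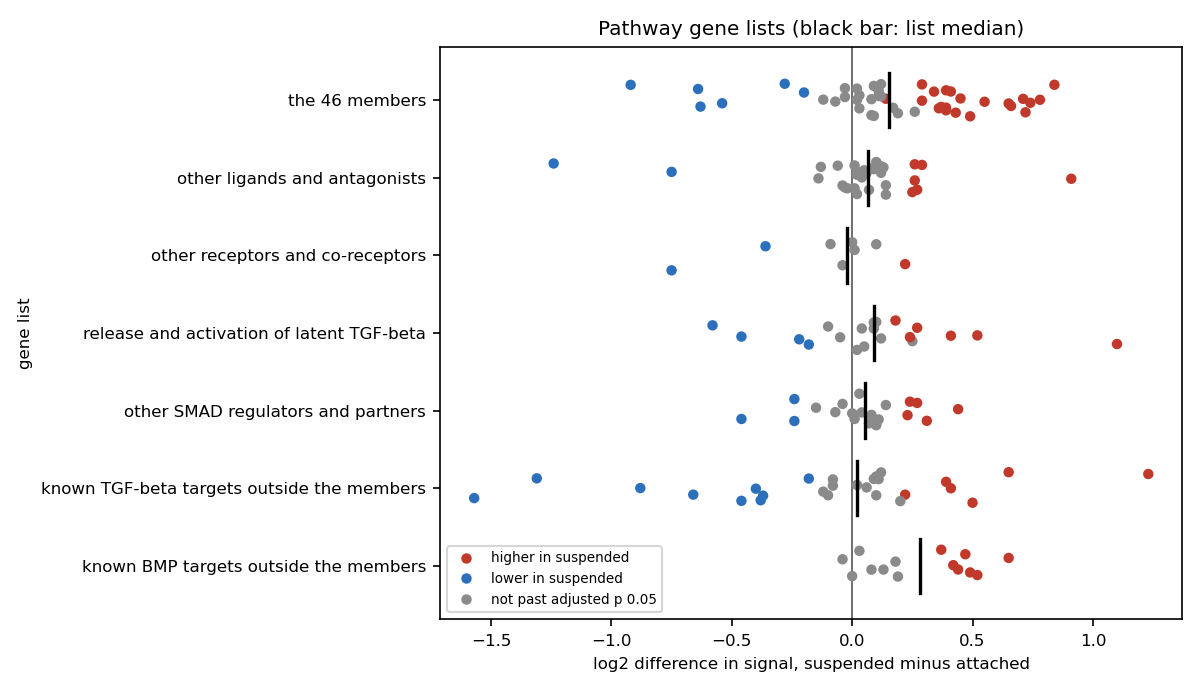
Log2 difference, suspended minus attached, of each gene (points; vertical scatter has no meaning) in the 46 genes and 6 lists of other pathway genes, with list medians as black bars. The BMP target list has 7 red and 0 blue points, whereas the TGF-beta target list spreads from −1.57 (TGM2) to 1.23 (SNAI2).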

How the data were processed

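RNA of 8 BT549 cultures was read on gene-level arrays. The deposited table holds 33297 probe sets as log2 signals, per the file's values, since the authors state no scale. Partek was used, per the submitters' processing notes. How background, normalization and probe set summaries were handled is not given in the sources used here. Per the labels, labelling used a kit sold for small RNA. Signals were used as deposited. Of the probe sets 19460 had 1 gene symbol in the platform annotation, 1754 several and 12083 none. A gene with several was represented by its brightest, judged on the mean of the 8 arrays. Of the symbols 19429 matched RefSeq (GRCh38.p14) by gene ID and 31 did not.

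The test was limma's (version 3.58.1, R 4.3.3): lmFit and eBayes, two-sided, without covariates, with Benjamini-Hochberg adjustment over 18417 genes and a threshold of 0.05. Differences are suspended minus attached, SE is limma's moderated error, and SD is over 4 arrays. Precision is limited by the number of arrays. The code was tested on simulated data. Figures and tables used Python 3.11.15, pandas 2.3.3, numpy 2.4.6 and matplotlib 3.10.9.

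The members and lists were chosen with earlier results of these data known. Values per array are given for the 14 called members with the smallest adjusted p, and the 4 genes with the smallest adjusted p are named from each of 6 lists of other pathway genes. Some listed genes are not reported here, and THBS1 and SMAD9 each count in 2 lists. The alternatives were other scalings, filters on low signal, probe set rules, array weights, a variance trend, a replicate block and each array left out.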

Additional observations from a re-analysis of the deposited data

Results flagged for a closer look

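Within groups of 4 arrays, 1 array stood apart from the other 3 for 6 of 138 gene and group pairs (4.35%), where chance flags about 5%. BMPR1B was at 5.15 in suspended replicate 1, against 4.97 to 4.99 in the other suspended arrays. BAMBI was at 9.01 in suspended replicate 4, against 8.86 to 8.88. SMAD6 was at 7.49 in suspended replicate 4, against 7.36 to 7.38. SMAD4 was at 9.11 in attached replicate 4, against 9.04 in each of the other attached arrays. SMURF2 was at 9.15 in suspended replicate 1, against 9.23 to 9.24, and NEDD4L at 5.60 in suspended replicate 1, against 5.76 to 5.79. With each array left out in turn BAMBI remained called (0.26 to 0.33), as did SMURF2 (−0.64 to −0.60).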

How the results depend on the processing

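Of the 27 called members 25 stayed called under all 18 alternatives, with no change of direction among the 27. SMAD1 kept its call under 6 of them and SMAD5 under 13. The number of members called was 25 to 27 with 1 array left out, and 2934 to 3752 over all genes, against 3787 with all arrays. With replicate number as a block, 26 members and 3022 genes were called, and SMAD1 was the member lost. The numbers gave no sign of pairing the arrays: deviations of same-numbered arrays from their group means correlated at 0.042, −0.198, −0.016 and −0.170, and no suspended array correlated best with the attached array of its own number. With 4 arrays per group a weak pairing could be missed. Centring each array on the median of the tested genes, an alternative chosen after the data were seen, left 20 members higher and 6 lower, while over all genes 35.2% of calls were higher, against 50.4% as deposited. Of the 19 members not called, BMP7, NOG, INHBB and SMAD2 were called under at least 1 alternative. The sign of small, uncalled differences turned as follows. LTBP1 was −0.004 with arrays centred on the median of all probe sets, −0.027 on that of the tested genes, and −0.024 to 0.061 with 1 array left out. ACVR2A was −0.002 and −0.026 under the same centrings, −0.001 with array weights, a negative value that rounds to 0 after quantile normalization, and −0.066 to 0.074 with 1 array left out. BMPR1B was −0.020 and SMAD4 −0.012 under the second centring, and BMPR1B −0.017 to 0.080 with 1 array left out. ID2 was 0.029 after quantile normalization and −0.069 to 0.035 with 1 array left out. Without a background measure, folds are ratios of signals, and changes of low genes may be understated.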
